A study of Arabidopsis thaliana with 16 samples.

Results

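The outermost tip of the Arabidopsis thaliana root was compared with the section just above it, the upper part of the meristem, on standard medium. Columbia seedlings were grown for 5 days on Murashige and Skoog medium with sucrose and moved to fresh standard medium for 1 h, after which the roots were divided along their length into 4 zones. Zone 1 was the conical tip, about 150 µm long, and zone 2 the next 200 µm or so, up to where the root turns less dense. The comparison used 4 of the 16 arrays of the series, 2 for zone 1 (replicates 1 and 2) and 2 for zone 2 (replicates 3 and 4), and 22746 of the 22810 probe sets, all but the control probe sets. The 4 standard arrays of zones 3 and 4, which cover the elongating root and the root hair zone, served to estimate the spread, and the arrays of roots moved to 140 mM NaCl stayed out of this comparison. About 15 sections were pooled for each array, and the RNA was amplified in 2 cycles before labelling. The labels do not say whether the pools came from separate cultures, so a p-value here weighs a difference only against the spread of these samples, which may be technical.

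The root grows from a stem cell niche that lies around the quiescent centre, inside the tip. Below it the columella and the lateral root cap form the root cap, which shields the meristem, senses gravity through starch-filled plastids and sheds its outer cells. Above the niche, cells divide and then leave the cell cycle, often pass into rounds of DNA replication without division, and begin to elongate as their walls loosen and new wall is laid down. A section is a mixture of these cell types: in such bulk RNA, fewer cells of a type and less RNA per cell cannot be told apart.

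All values are signal intensities on a linear scale, with a mean of 250.02 to 250.03 per array after trimming, and differences are on the scale of log2(signal + 16). A probe set was called where limma's moderated test gave an adjusted p under 0.05. The zones differed at 5305 of the 22746 probe sets (23.3%), of which 2830 were higher in zone 1 (12.4% of those tested) and 2475 in zone 2 (10.9%). At an unadjusted p under 0.05 there were 7859. Among all 13355 named genes, taken as 1 probe set each, 21.7% were called: 11.9% higher in zone 1 and 9.8% higher in zone 2, with a median log2 difference of 0.1. Centring each array on its median, which moved the median difference of all probe sets by 0.17 on the log2 scale, turned the split to 1856 against 3306, so that 36.0% of the calls in place of 53.3% were higher in zone 1. The 4 arrays of the 5305 called probe sets did not overlap between zones, but neither did those of 61.6% of all probe sets. Across probe sets, which are not independent replicates, the log2 signals correlated at 0.9837 within zone 1, 0.9859 within zone 2 and 0.933 to 0.9401 between the zones. With 2 arrays a zone, precision was set by their number; the standard error of a difference had a median of 0.21.

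Signals in zones 3 and 4 are given below as values beside some genes and were not tested. The labelled zones were set against marker lists, of which only a few members could be measured, since many symbols are not in the probe annotation used here. Of 5 measured root cap markers, AT1G65570 and scpl48 were higher in zone 1, AT2G14095 was higher in zone 2, and AT4G04460 and AT4G18425 did not pass the test. AT1G65570 had signals of 1396 and 1854 on the zone 1 arrays and 33.1 and 3.81 on the zone 2 arrays, and AT2G14095 29.8 and 31.4 against 142 and 153. BBM (BABY BOOM), a PLETHORA family factor of the stem cell niche, was higher in zone 1, and the other 3 measured niche markers did not pass. The markers of root hairs, EXPA7, EXPA18 and XTH26, had signals of at most 41.6 in both zones; EXPA7 was at 29.2 and 21.3 in zone 1 and 24.7 and 24.7 in zone 2, with means of 2098 in zone 3 and 2672 in zone 4. The only measured ground tissue marker, JKD, and the only measured phloem marker, OPS, did not pass, and epidermis, xylem, cyclin and auxin transport lists had no measured member and were not analysed here.

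Large differences were fewer. Of the called probe sets, 2207 differed by more than 2-fold, 1185 of them higher in zone 1 and 1022 higher in zone 2. More than 8-fold, 78 were higher in zone 1 and 72 in zone 2. For 50 of the 78, the mean signal in zone 2 was below 40.8, the 40th percentile of all signals, and for 40 of the 72 the mean in zone 1 was below it. Such genes went from a signal at the dim end of the array to a brighter one between adjoining sections, and the fitted size of the step depends on the constant added before taking logs.

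The steepest step among probe sets with 1 named gene was that of AT1G50060, whose signals were 9082 and 9515 in zone 1 and 9.57 and 3.35 in zone 2. It was higher in zone 1 by 8.71 log2 units (SE 0.21, adjusted p = 2.38e-07), or by 10.42 and 7.05 with 1 and 64 added in place of 16. GH9B6, a glycosyl hydrolase of the family that holds the plant endoglucanases, followed with 1015 and 1171 in zone 1 and 2.24 and 2.13 in zone 2, a difference of 5.93 log2 units (SE 0.22, adjusted p = 1.61e-06). That place depends on the constant: with 64 added, MT1C and AT1G65570, at 5.11 and 4.37 log2 units, exceeded GH9B6 at 4.12. The root cap marker AT1G65570 was higher by 5.70 log2 units (SE 0.46, adjusted p = 6.99e-05). PPDK, pyruvate orthophosphate dikinase, which interconverts pyruvate and phosphoenolpyruvate, stood at 821 and 759 in zone 1 against 5.15 and 4.63, a difference of 5.27 log2 units (SE 0.26, adjusted p = 5.09e-06). No zone 2 array came near the zone 1 level of these genes.

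MT1C, a metallothionein, a small metal-binding protein rich in cysteine, had signals of 4859 and 5075 in zone 1 and 96.6 and 69 in zone 2, and was higher in zone 1 by 5.67 log2 units (SE 0.14, adjusted p = 2.38e-07). It was bright again farther up the root, at 1951 and 2097 in zone 3 and 8822 and 9653 in zone 4, so that zone 2 was a trough. The other 7 of the 12 largest differences toward the tip belonged to loci without a symbol in the annotation. AT5G51470, AT1G48070, AT4G26880 and AT1G23160 were at most 13.1 in zone 2 and at least 438 in zone 1, with differences from 4.67 to 5.20 log2 units. AT4G27400, AT3G28530 and AT4G19460 differed by 4.47, 4.43 and 4.41 log2 units, and AT4G27400 was at 114 and 139 in zone 2. Whether the probe set of AT3G28530 also measures other transcripts was not examined.

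By the size of the signal difference rather than its ratio, the 5 leading genes of the tip were AT1G50060, AT5G54370, AT3G19430, AT1G52070 and AT1G52050. AT5G54370 reached 12566 and 12279.6 in zone 1, against 1508 and 1607 in zone 2, a difference of 2.98 log2 units (SE 0.11, adjusted p = 1.55e-06). AT3G19430 was at 8127 and 9438 against 466 and 684, a difference of 3.92 log2 units (SE 0.22, adjusted p = 1.06e-05). AT1G52070 and AT1G52050, by contrast, were bright in both sections and differed by 2.12 and 1.85 log2 units. All 4 of these loci were lower still in zones 3 and 4, where AT1G52070 had means of 28.7 and 9.3.

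**Figure D1:**
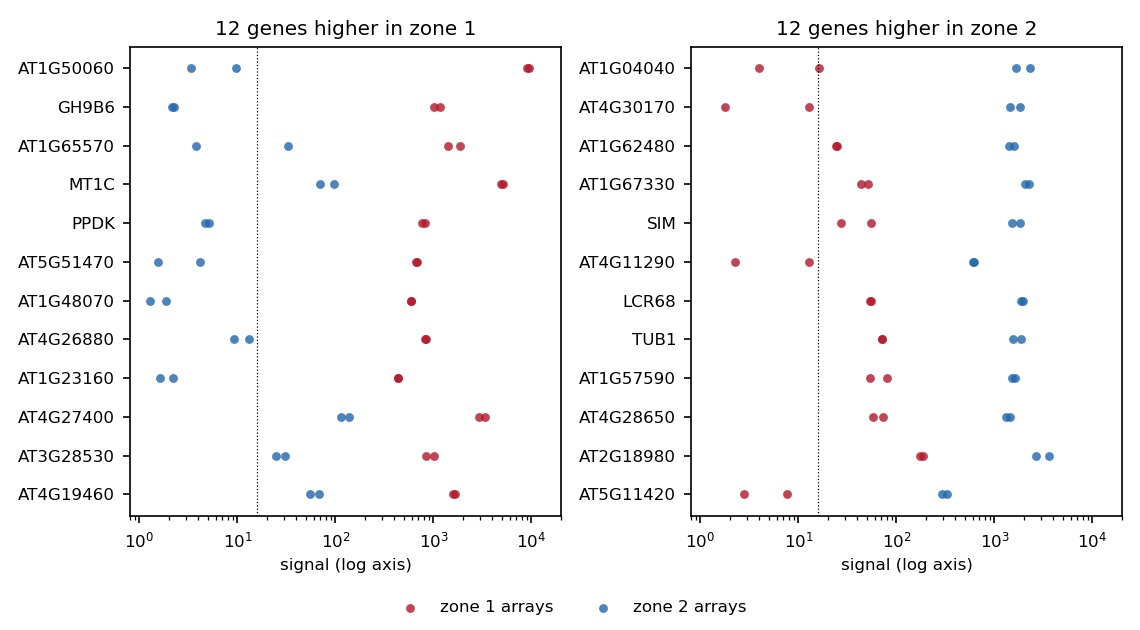
Signal of each array (log axis) for the 12 named genes with the largest log2 differences in each direction; red points are the 2 zone 1 arrays, blue points the 2 zone 2 arrays, and the dotted line marks 16, the constant added before taking logs. In every gene the zones are apart, from AT1G50060 at 9082 and 9515 against 9.57 and 3.35 to AT5G11420 at 7.61 and 2.77 against 289 and 326.

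In the other direction the largest difference with 16 added was that of AT1G04040, with 16.4 and 3.97 in zone 1 and 1667 and 2283 in zone 2. It was higher in zone 2 by 6.27 log2 units (SE 0.24, adjusted p = 1.92e-06), and its signal was higher again in zone 3, at 8249.8 and 9122. AT4G30170 had the same shape, from 13 and 1.77 to 1441 and 1842, a difference of 6.18 log2 units (SE 0.22, adjusted p = 1.55e-06). With 1 added, that of AT4G30170 was the larger, at -8.03 against -7.71 log2 units for zone 1 minus zone 2. Zone 2 was thus where these transcripts first became bright along the root, not where they peaked. AT1G62480 and AT1G67330 differed by 5.22 and 5.09, and AT4G11290 by 4.78 log2 units. LCR68, a low-molecular-weight cysteine-rich protein also named as the plant defensin PDF2.3, was at 54.7 and 54 in zone 1 and 1866 and 1938 in zone 2, higher by 4.77 log2 units (SE 0.10, adjusted p = 1.29e-07).

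SIM (SIAMESE), an inhibitor of cyclin-dependent kinases known for turning dividing cells toward endoreplication in leaf hairs, was among these leading genes. Its signals were 27.4 and 54.5 in zone 1 and 1506 and 1832 in zone 2, a difference of 4.92 log2 units (SE 0.24, adjusted p = 5.09e-06). Farther up the root the signals were 2458 and 1711 in zone 3 and 1093 and 1148 in zone 4. TUB1, a beta-tubulin, went from 72 and 71.2 to 1554 and 1869, a difference of 4.29 log2 units (SE 0.17, adjusted p = 1.92e-06). AT4G28650, listed as the receptor-like kinase PXY-like2, was higher in zone 2 by 4.10 log2 units (SE 0.15, adjusted p = 1.55e-06) and stood at 74.9 and 65.6 in zone 4. AT1G57590, AT2G18980 and AT5G11420 completed the 12, with differences of 4.27, 3.99 and 3.94 log2 units.

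The largest gains in signal toward zone 2 were those of ZW9, AT3G44190, AT2G18980, AT5G19760 and AT1G04430. ZW9 was at 493 and 836 in zone 1 and 3927 and 4341 in zone 2, a difference of 2.65 log2 units (SE 0.23, adjusted p = 0.000117). AT3G44190 differed by 1.66, and AT1G04430 by 0.84 log2 units. AT5G19760, bright in both sections at 5679 and 4443 in zone 1 and 7959.7 and 8485 in zone 2, differed by 0.71 log2 units (SE 0.13, adjusted p = 0.00573), and without zone 2 replicate 4 its adjusted p was 0.0507. It was the only one of the 32 leading genes that lost its call under any of the 13 alternatives.

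The gene groups that follow were read from symbols and locus names, and each count is over the members measured. Of the 13355 genes, 1557 have a symbol other than the locus. Leading loci without a symbol, among them AT5G51470, AT1G23160, AT4G30170, AT4G11290, AT2G18980, AT1G52070 and AT1G52050, were not sorted into these families. The counts may therefore leave out measured members, also some with large differences. Shares near those of all named genes, 11.9% and 9.8%, say nothing particular about a group. The groups of spindle, patterning, starch, autophagy, RNA polymerase, tubulin, cellulose synthase-like, TRICHOME BIREFRINGENCE-LIKE, carboxypeptidase-like, family 9 hydrolase, secretory, citrate, receptor kinase, IQ-domain, tetraspanin and plastid genes were put together after values had been seen, so their counts describe these genes only.

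**Figure D2:**
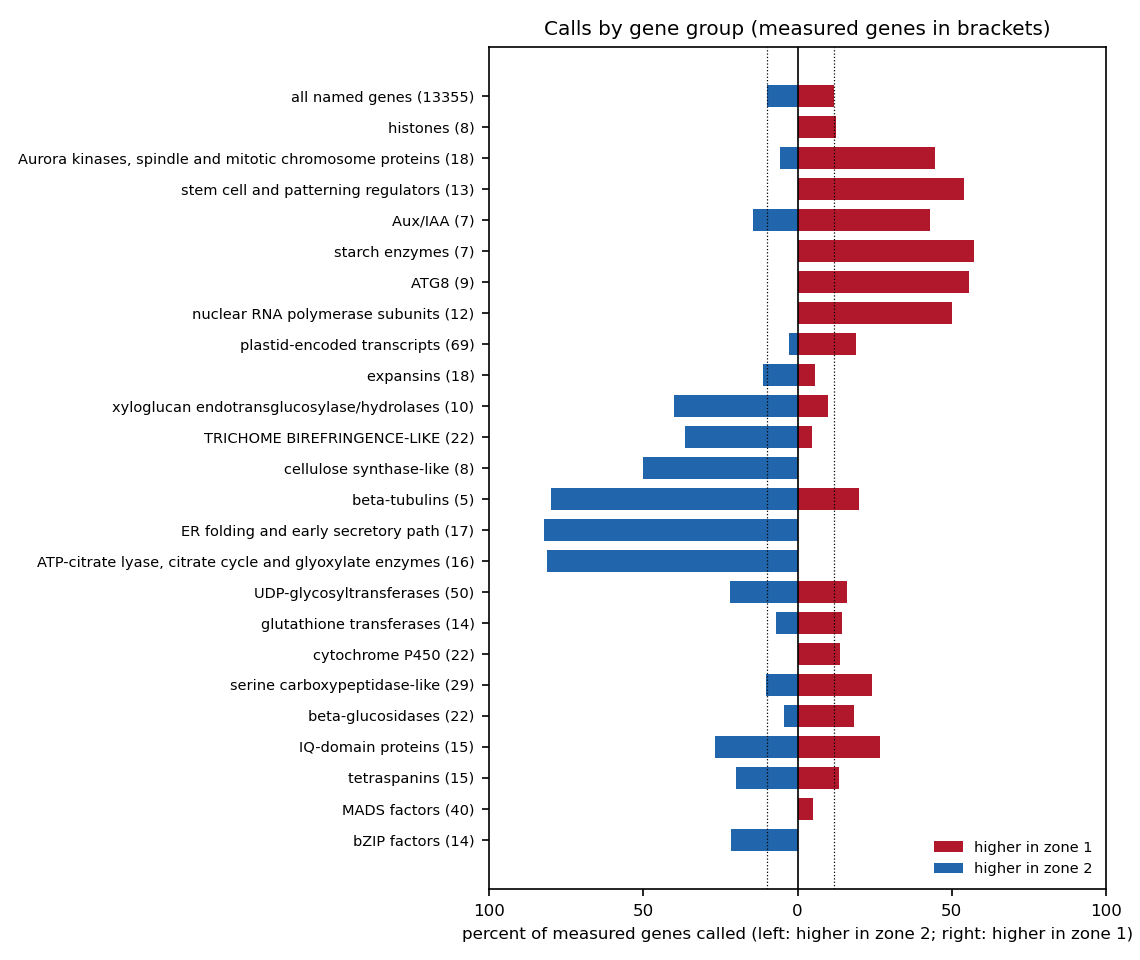
Percent of the measured genes of each group called higher in zone 1 (red, to the right) or in zone 2 (blue, to the left), with the number measured in brackets. Dotted lines mark the shares among all 13355 named genes, 11.9% and 9.8%. Of the secretory genes 14 of 17 lie to the left, and of the patterning genes 7 of 13 lie to the right. Both groups were put together after values had been seen, so these counts describe those genes only.

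Of the genes of the mitotic apparatus that passed, all but KINESIN-13A were higher in the outermost tip. Of 18 measured genes for Aurora kinases, spindle and mitotic chromosome proteins, 8 were higher in zone 1, 1 was higher in zone 2 and 9 did not pass, with a median log2 difference of 0.81. AUR1, an Aurora kinase of the mitotic spindle, was at 782 and 773 in zone 1 and 269.9 and 275 in zone 2, a difference of 1.46 log2 units (SE 0.11, adjusted p = 6.1e-05). AUR2 was at 517 and 445 against 129.7 and 128, higher by 1.78 log2 units (SE 0.23, adjusted p = 0.000848). No zone 2 array came near the zone 1 signals of these kinases. TOPII, the topoisomerase that untangles sister chromatids, differed by 1.92 log2 units (SE 0.18, adjusted p = 0.000183), and 3xHMG-box1, a protein that associates with mitotic chromosomes, by 1.32 log2 units (SE 0.22, adjusted p = 0.00293). The exception was KINESIN-13A, a microtubule motor that also acts outside mitosis, which was higher in zone 2 by 0.38 log2 units (SE 0.11, adjusted p = 0.0369); it lost its call without zone 1 replicate 2, zone 2 replicate 3 or zone 2 replicate 4, and with the 4 arrays alone, all 16 arrays or no variance trend in the fit, with adjusted p up to 0.202. With an array left out, 6 or 7 of the 18 were higher in zone 1.

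Among genes of the S phase, 1 of 6 replication factors and 1 of 8 histones passed, both higher in zone 1, where 11.9% of all named genes were called. Shares this close to the background say nothing particular about these genes. Of the 6 measured DNA replication factors, only POLD3, a subunit of DNA polymerase delta, passed, higher in zone 1 by 0.84 log2 units (SE 0.25, adjusted p = 0.0434), and it did not pass under median centring, under quantile normalization, with 1 added in place of 16, with the 4 arrays alone, or without zone 1 replicate 1 or either zone 2 array (adjusted p up to 0.227). PRL, the MCM7 subunit of the replicative helicase, was at 397 and 312 in zone 1 and 259 and 313 in zone 2 (zone 1 minus zone 2, 0.29 log2 units, adjusted p = 0.277). Of the histone genes HTB1, a histone H2B, passed and was higher in zone 1 by 0.44 log2 units (SE 0.12, adjusted p = 0.0279), a call lost under median centring, with no variance trend and when any of the 4 arrays was left out (adjusted p up to 0.136). Under median centring no histone was higher in zone 1 and 1 was higher in zone 2. HTB4 was at 7034 and 6895 in zone 1 and 6973 and 5737 in zone 2 (zone 1 minus zone 2, 0.14 log2 units, adjusted p = 0.485), and at means of 2402 in zone 3 and 1657 in zone 4. The HTB4 signal was therefore high in both sections and lower above them. Whether the difference of the spindle genes exceeded that of the S phase genes was not tested.

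The regulators of stem cells and patterning that passed were all higher in the tip. Of 13 measured, 7 were higher in zone 1 and none in zone 2, and 6 did not pass; the median log2 difference was 0.61. BBM was at 211 and 201 in zone 1 and 5.22 and 21 in zone 2, a difference of 2.98 log2 units (SE 0.37, adjusted p = 0.000737). AGO7, an Argonaute that acts in the making of trans-acting small RNAs, was at 119.7 and 121 against 5.92 and 5.36, higher by 2.65 log2 units (SE 0.21, adjusted p = 6.55e-05). Both were close to the dim end of the array in zone 2. ULT1 (ULTRAPETALA1), known for limiting shoot and floral meristems, differed by 1.46 log2 units (SE 0.15, adjusted p = 0.000279), and SPT (SPATULA), a bHLH factor of carpel development that also acts in the root, by 1.80 log2 units (SE 0.23, adjusted p = 0.000781). With an array left out, 5 or 6 of the 13 passed. The columella stem cell receptor kinase CR4 (ACR4) was at 71.2 and 76.2 in zone 1 and 54.4 and 53.2 in zone 2 (zone 1 minus zone 2, 0.36 log2 units, adjusted p = 0.35) and had means of 3.22 and 9.08 in zones 3 and 4. CLE40 was under 15 on all 4 arrays.

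The auxin response genes that could be measured differed by member. Of 7 Aux/IAA genes, which encode repressors of auxin responses, 3 were higher in zone 1 and 1 in zone 2, or 2 in zone 2 under median centring or quantile normalization. IAA33 was at 411 and 452 in zone 1 and 48.4 and 43.1 in zone 2, a difference of 2.86 log2 units (SE 0.27, adjusted p = 0.000154). IAA20 was at 179 and 157 against 25.4 and 9.22, a difference of 2.51 log2 units (SE 0.27, adjusted p = 0.000337), and IAA30 differed by 1.50 log2 units (SE 0.27, adjusted p = 0.00479). IAA20 and IAA30 lack the degron through which auxin destabilises this family. IAA18 went the other way, from 21.6 and 12.7 to 48.9 and 73.5, higher in zone 2 by 1.22 log2 units (SE 0.24, adjusted p = 0.00739), a call lost without zone 2 replicate 4 (adjusted p = 0.0629). GH3 enzymes can join auxin to amino acids. Of 5 genes recognised by name as GH3, WES1 and GH3.17 were higher in zone 1 and 3 did not pass. This count may leave out members among the leading loci, since AT5G51470 and AT1G23160 were not sorted into families. It therefore gives no balance for the family. The differences were 1.69 log2 units (SE 0.24, adjusted p = 0.00135) for WES1 and 1.43 log2 units (SE 0.24, adjusted p = 0.00355) for GH3.17. The one measured cytokinin gene, the response regulator ARR15, had signals of 25.9 and 33.1 in zone 1 and 51.6 and 40.5 in zone 2 (zone 1 minus zone 2, -0.45 log2 units, adjusted p = 0.262).

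Starch in the root tip is stored in the columella, where it weights the gravity-sensing plastids. Of 7 measured genes for enzymes of starch synthesis and breakdown, 4 were higher in zone 1 and none in zone 2. SBE2.2, a starch branching enzyme, was at 309 and 283 in zone 1 and 68.1 and 90.3 in zone 2, a difference of 1.72 log2 units (SE 0.17, adjusted p = 0.00025). PWD (AT5G26570), phosphoglucan water dikinase, which phosphorylates starch for its breakdown, was higher by 1.04 log2 units (SE 0.17, adjusted p = 0.00301). Only these 2 remained called without zone 1 replicate 1 or without zone 2 replicate 4. DPE1, the plastid disproportionating enzyme, and APL4, a large subunit of ADP-glucose pyrophosphorylase, differed by 0.88 and 0.94 log2 units with adjusted p up to 0.0877 and 0.061 when an array was left out, and APL4 was not called with 1 added. APL4 was dim, at 41.4 and 34.8 in zone 1 and 11.6 and 12.8 in zone 2. In the list for gravity sensing, AT1G72490 was higher in zone 1 by 1.44 log2 units (SE 0.37, adjusted p = 0.0236), a call lost without zone 1 replicate 2 or zone 2 replicate 4 (adjusted p up to 0.164), and APL3 did not pass.

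ATG8 proteins are ubiquitin-like and are joined to the growing autophagosome membrane. Of 9 measured ATG8 genes, 5 were higher in zone 1, none in zone 2, and the median log2 difference was 1.04. ATG8F was at 760.2 and 749.9 in zone 1 and 285 and 280.3 in zone 2, a difference of 1.37 log2 units (SE 0.09, adjusted p = 3.1e-05). ATG8D, ATG8E and ATG8G differed by 1.13, 1.44 and 1.04, and ATG8B by 1.29 log2 units. The 5 calls held without each of the 4 arrays and under median centring. ATG8F had its lowest signals in zone 2, with means of 807 in zone 3 and 3524 in zone 4.

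Of 12 measured subunits of the nuclear RNA polymerases, 6 were higher in zone 1 and none in zone 2. NRPA2, the second largest subunit of RNA polymerase I, was at 1531 and 1651 in zone 1 and 839.8 and 742 in zone 2, a difference of 1.00 log2 units (SE 0.11, adjusted p = 0.000367). NRPB6A differed by 0.88 log2 units (SE 0.10, adjusted p = 0.000517) and NRPB12, shared by several of the polymerases, by 0.62 log2 units (SE 0.09, adjusted p = 0.00185). The count fell to 4 without zone 1 replicate 1, zone 1 replicate 2 or zone 2 replicate 3, to 3 without zone 2 replicate 4, and to 4 under median centring. The NRPA2 signal was lower again in zones 3 and 4, with means of 192 and 231.

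Several families of wall enzymes held more calls toward the upper section than toward the tip. Of 10 measured xyloglucan endotransglucosylase/hydrolases, which cut and rejoin xyloglucan, 4 were higher in zone 2, 1 in zone 1, and 5 did not pass. XTH16 was at 29.3 and 29.4 in zone 1 and 427 and 449 in zone 2, a difference of 3.32 log2 units (SE 0.16, adjusted p = 4.65e-06). XTH19 differed by 2.11 log2 units (SE 0.24, adjusted p = 0.000407), and XTH21, from 1.93 and 3.89 to 45.3 and 119, by 2.27 log2 units (SE 0.32, adjusted p = 0.00147). XTH18 passed with a difference of 1.34 log2 units but not with 64 added, or without zone 1 replicate 1 or zone 2 replicate 4 (adjusted p up to 0.0982). EXGT-A3 was the member higher in zone 1, by 0.73 log2 units (SE 0.15, adjusted p = 0.00872), and lost its call without zone 1 replicate 2 or zone 2 replicate 3 (adjusted p up to 0.0648). XTH18 and XTH21 had zone 3 means of 1501 and 1720.0.

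Expansins, proteins that loosen walls, were near the background share as a family: 2 of 18 were higher in zone 2, 1 in zone 1, and 15 did not pass. EXPB1 was at 6.42 and 13.1 in zone 1 and 154 and 254 in zone 2, a difference of 3.07 log2 units (SE 0.26, adjusted p = 8.83e-05), and EXLA2 differed by 1.22 log2 units (SE 0.20, adjusted p = 0.00276). With all 16 arrays in the fit EXLA2 was not called (adjusted p = 0.0755). EXPA4 was higher in zone 1, at 111 and 77.7 against 19.3 and 23.8, a difference of 1.54 log2 units (SE 0.34, adjusted p = 0.0116), but not without zone 1 replicate 1 or either zone 2 array (adjusted p up to 0.0809). EXPA15 was at 382 and 389.8 in zone 1 and 319 and 319.9 in zone 2 (zone 1 minus zone 2, 0.26 log2 units, adjusted p = 0.277). Only 9 of the 18 had a mean signal above 40.8 in either section. None of the 5 measured pectin methylesterases passed.

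Of 22 measured TRICHOME BIREFRINGENCE-LIKE genes, a family of enzymes that acetylate wall polysaccharides, 8 were higher in zone 2 and TBL45 was higher in zone 1. TBL37 was at 133 and 158 in zone 1 and 605 and 615 in zone 2, a difference of 1.96 log2 units (SE 0.11, adjusted p = 1.12e-05). TBL21 differed by 2.29 log2 units (SE 0.24, adjusted p = 0.000307), TBL32 by 1.05 log2 units (SE 0.13, adjusted p = 0.000737) and TBL25 by 1.17 log2 units (SE 0.19, adjusted p = 0.00259). Without zone 1 replicate 1, the count toward zone 2 was 5. TBL45, at 170.1 and 199 in zone 1 and 50.1 and 56.8 in zone 2, differed the other way by 1.53 log2 units (SE 0.20, adjusted p = 0.00103).

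Of 8 cellulose synthase-like genes, whose products make wall polysaccharides other than cellulose, 4 were higher in zone 2 and none in zone 1. CSLA03, of the mannan synthase group, was at 2.76 and 2.03 in zone 1 and 95.4 and 140.5 in zone 2, a difference of 2.84 log2 units (SE 0.22, adjusted p = 6.19e-05). CSLD2, needed for root hair growth, differed by 0.82 log2 units (SE 0.11, adjusted p = 0.00127). CSLC04 and CSLC5, of the xyloglucan backbone group, differed by 1.14 and 0.73 log2 units; only CSLA03 and CSLD2 were called without zone 2 replicate 4. CSLC04 was also not called without zone 1 replicate 1, nor CSLC5 without zone 1 replicate 2 or zone 2 replicate 3, with 1 added, with the 4 arrays alone or with no variance trend. Of 15 family 9 hydrolases, the leading tip gene GH9B6 and GH9B13 were higher in zone 1 and GH9B7 and GH9B5 higher in zone 2. With 1 added GH9B13 was not called (adjusted p = 0.0943). GH9B13 was at 885 and 923 in zone 1, 201 and 339.8 in zone 2 and a mean of 2618 in zone 3, so zone 2 was again a trough.

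All 5 measured beta-tubulins passed the test, 4 of them higher in zone 2. After TUB1, TUB5 had the largest difference, from 351 and 382 in zone 1 to 2036 and 2089 in zone 2, or 2.44 log2 units (SE 0.15, adjusted p = 1.51e-05). TUB6 and TUB9 differed by 1.12 log2 units (SE 0.14, adjusted p = 0.000827) and 0.56 log2 units (SE 0.09, adjusted p = 0.00305). TUB7 was higher in zone 1, at 760.1 and 670.3 against 461 and 439, a difference of 0.65 log2 units (SE 0.18, adjusted p = 0.0314), a call lost under median centring, with no variance trend and when any of the 4 arrays was left out (adjusted p up to 0.158). The probe sets of this family may share sequence, which was not examined. Among 7 receptor kinases, THE1 (THESEUS1), a monitor of the state of the wall, was higher in zone 2 by 1.08 log2 units (SE 0.14, adjusted p = 0.000961), and FER (FERONIA), its relative, by 0.83 log2 units (SE 0.18, adjusted p = 0.0105). The call of FER was lost without zone 1 replicate 2 or zone 2 replicate 4 (adjusted p up to 0.0837). EMS1 and GSO1 were also higher in zone 2, and BRL1, a brassinosteroid receptor, was higher in zone 1, at 20.02 and 44.9 against 0.989 and 2.1; each of these 3 calls was lost without at least 1 array, and that of GSO1 also with 64 added, with the 4 arrays alone and with no variance trend. The count toward zone 2 was 2 without zone 1 replicate 1, zone 1 replicate 2 or zone 2 replicate 3, and 3 without zone 2 replicate 4.

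**Figure D3:**
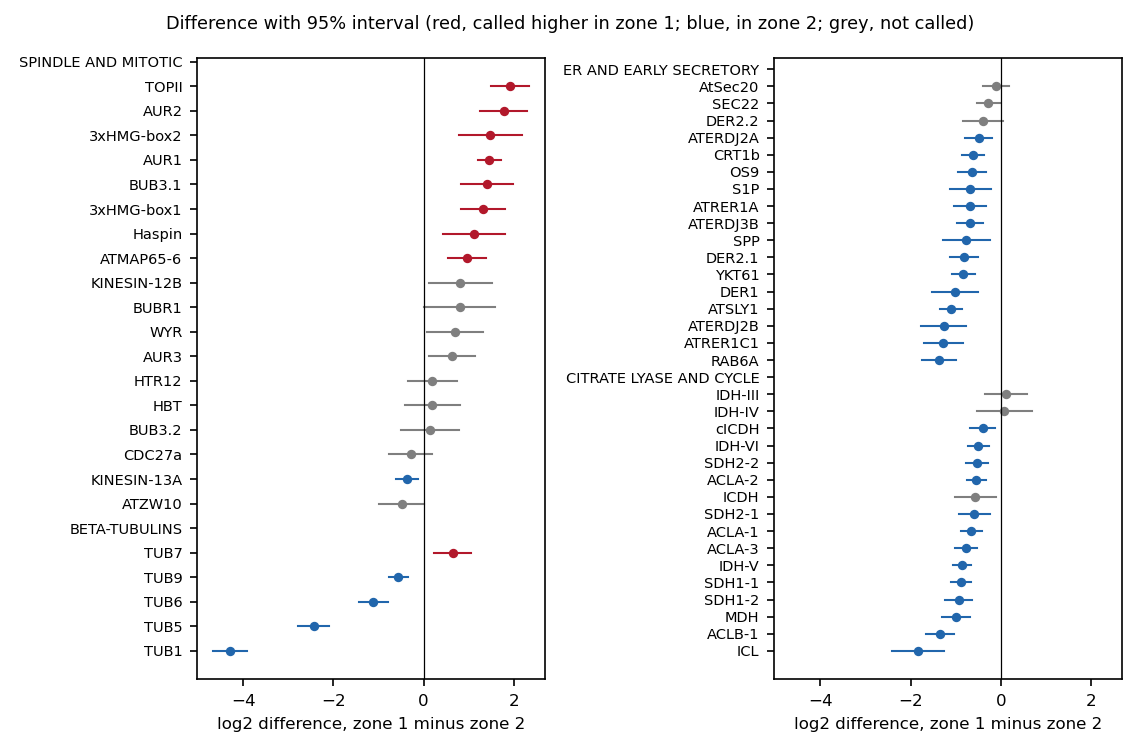
Log2 difference between zone 1 and zone 2 with its 95% interval for each measured member of 4 gene groups: spindle and mitotic genes, beta-tubulins, secretory genes and citrate genes. Red marks a call toward zone 1, blue toward zone 2 and grey no call; 8 of 18 mitotic genes are red, and 14 of 17 secretory and 13 of 16 citrate genes are blue.

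Genes of protein folding in the endoplasmic reticulum and of the early secretory path that passed were all higher in zone 2, by small amounts. Of 17 measured, 14 were higher in zone 2 and none in zone 1, with a median log2 difference of -0.69 (zone 1 minus zone 2). RAB6A, a GTPase of the Golgi, was at 412 and 365 in zone 1 and 964 and 1096 in zone 2, a difference of 1.37 log2 units (SE 0.17, adjusted p = 0.000658). ATSLY1, of the family that guides SNARE pairing, and YKT61, a SNARE, differed by 1.10 log2 units (SE 0.11, adjusted p = 0.000183) and 0.83 log2 units (SE 0.12, adjusted p = 0.00132). ATRER1C1, which returns membrane proteins to the reticulum, differed by 1.27 log2 units (SE 0.19, adjusted p = 0.00188). Each of these 4 differences was of less than 3-fold. With single arrays left out the count was 9 or 10 of 17: 9 without zone 1 replicate 1 or zone 2 replicate 4, and 10 without zone 1 replicate 2 or zone 2 replicate 3.

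The genes that make and use citrate and passed the test were all higher in zone 2 as well. Of 16 measured genes for ATP-citrate lyase, the citrate cycle and the glyoxylate cycle, 13 were higher in zone 2 and none in zone 1, with a median log2 difference of -0.62. ACLB-1, a subunit of the lyase that makes acetyl-CoA in the cytosol for lipids and wax, was at 830.0 and 836 in zone 1 and 2016 and 2277 in zone 2, a difference of 1.35 log2 units (SE 0.14, adjusted p = 0.00026). The 3 subunit genes ACLA-1, ACLA-2 and ACLA-3, named after their values were seen, were higher too, by 0.65, 0.54 and 0.77 log2 units. IDH-V, of mitochondrial isocitrate dehydrogenase, differed by 0.85 log2 units (SE 0.09, adjusted p = 0.000269), and SDH1-1, of succinate dehydrogenase, by 0.89 log2 units (SE 0.10, adjusted p = 0.000371). ICL, isocitrate lyase of the glyoxylate cycle, was dim in zone 1 at 4.71 and 2.25 and at 44.4 and 63.6 in zone 2. The count was 10 without each of the 4 arrays in turn.

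Families of secondary metabolism and detoxification were split between the sections. Of 50 measured UDP-glycosyltransferases, 8 were higher in zone 1 and 11 in zone 2. Toward zone 1, UGT87A2 was at 1325 and 1294 against 151 and 153, a difference of 2.98 log2 units (SE 0.12, adjusted p = 2.66e-06), and UGT76C2, which glucosylates cytokinins, at 200.4 and 133 against 10.5 and 2.13, a difference of 3.03 log2 units (SE 0.27, adjusted p = 0.000115). UGT87A2 was bright again in zone 4, with a mean of 3143. Toward zone 2, UGT78D2, which glucosylates flavonols and anthocyanins, went from 279.8 and 339.6 to 1337 and 1496, a difference of 2.14 log2 units (SE 0.12, adjusted p = 8.3e-06). UGT76B1 and UGT74D1 differed by 2.12 log2 units (SE 0.12, adjusted p = 1.08e-05) and 1.82 log2 units (SE 0.12, adjusted p = 2.35e-05).

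Of 14 glutathione transferases, ATGSTF13 and GSTU25 were higher in zone 1 and GSTU27 in zone 2, the last not with no variance trend or without zone 1 replicate 1 or zone 2 replicate 4 (adjusted p up to 0.133). Under median centring 2 were higher in zone 1 and 3 in zone 2, so that the split turned over. ATGSTF13 had signals of 1524 and 1628 in zone 1 and 195 and 167 in zone 2, a difference of 3.02 log2 units (SE 0.25, adjusted p = 8.2e-05), and was dim farther up the root, with means of 13.4 and 27.5 in zones 3 and 4. Of 22 cytochrome P450 genes, 3 were higher in zone 1 and none in zone 2, a share close to that of all genes. Of 29 serine carboxypeptidase-like genes, 7 were higher in zone 1 and 3 in zone 2. The split was even, 5 against 5, under median centring and without zone 1 replicate 2. The root cap marker scpl48 was at 1809 and 2683 against 369 and 454, a difference of 2.38 log2 units (SE 0.21, adjusted p = 0.000115), and scpl20 at 525 and 556 against 47.9 and 48.6, a difference of 3.12 log2 units (SE 0.14, adjusted p = 3.69e-06). The opposite member scpl40 went from 59.3 and 47.8 to 374 and 504, a difference of 2.70 log2 units (SE 0.19, adjusted p = 3.24e-05).

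Of 22 beta-glucosidases, 4 were higher in zone 1 and BGLU28 in zone 2, or 3 in zone 1 and 2 in zone 2 under median centring or quantile normalization. PYK10, the main beta-glucosidase of the endoplasmic reticulum bodies of roots, was bright in both sections, at 4370.4 and 4310.4 in zone 1 and 2756 and 2582 in zone 2, and differed by 0.70 log2 units (SE 0.14, adjusted p = 0.00875). Without zone 1 replicate 1 or zone 2 replicate 4 PYK10 was not called (adjusted p up to 0.0683), and each of the other 4 calls was lost without at least 1 array; the count toward zone 1 was 1 without either zone 1 array and 2 without either zone 2 array. Of 4 genes recognised by name as jacalin lectins, JAL33 was higher in zone 1, JAL34 in zone 2, and the others did not pass. This count, too, may leave out members among the leading loci, so it gives no balance for the family. JAL33 was at 1273 and 797 in zone 1 and 194 and 123 in zone 2, a difference of 2.58 log2 units (SE 0.31, adjusted p = 0.000662). JAL34 was at 4508 and 4228 in zone 1 and 6186 and 6157 in zone 2, a difference of 0.50 log2 units (SE 0.14, adjusted p = 0.0302), and lost its call without each of the 4 arrays in turn, under quantile normalization and with no variance trend (adjusted p up to 0.148). Of the 7 genes listed here as class III peroxidases, Prx37 and PRXR1 were higher in zone 2. The count may leave out members among the leading loci, since AT4G30170, AT4G11290 and AT2G18980 were not sorted into families. It therefore gives no balance for the family. Prx37 differed by 1.47 log2 units (SE 0.17, adjusted p = 0.000563). PRXR1 differed by 0.61 log2 units (SE 0.13, adjusted p = 0.0112) and lost its call without zone 1 replicate 2 or zone 2 replicate 3 (adjusted p up to 0.0854). AT5G64120 was called higher in zone 1 at 22.9 and 19.2 against 1.35 and 9.95, signals that were all dim next to a mean of 5239 in zone 4, and its call did not hold under median centring or quantile normalization, with 64 added, with the 4 arrays alone, or without zone 1 replicate 1, zone 1 replicate 2 or zone 2 replicate 3 (adjusted p up to 0.133). AT5G66390, not called in the comparison, was called higher in zone 1 without zone 1 replicate 2 (adjusted p = 0.0373) and with 1 added (adjusted p = 0.0177), at 21.2 and 4.06 in zone 1 and 0.846 and 1.38 in zone 2.

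Transcription factors were measured in 4 families, whose members were recognised by name. The bHLH factor SPT, called higher in zone 1, was counted with the patterning genes and is not among the 7 bHLH factors below. Of 40 MADS factors 2 were higher in zone 1, AGL18 and AGL21. The call of AGL18 was lost when any of the 4 arrays was left out. That of AGL21 was lost without zone 1 replicate 1, zone 1 replicate 2 or zone 2 replicate 3. The AGL21 call was also lost under median centring, under quantile normalization, with the 4 arrays alone and with all 16. Of the 40, 34 had mean signals below 40.8 in both sections. Of 14 bZIP factors 3 were higher in zone 2, or 5 under median centring and 4 under quantile normalization. BZIP61 was at 1.79 and 2.37 in zone 1 and 156 and 165 in zone 2, a difference of 3.29 log2 units (SE 0.21, adjusted p = 2.08e-05), and had a mean of 160.4 in zone 3 and 1.88 in zone 4. BZIP60, a regulator of the unfolded protein response, was higher in zone 2 by 0.59 log2 units (SE 0.14, adjusted p = 0.0179), and bZIP52 by 0.61 log2 units; the calls of both were lost without zone 1 replicate 1 or zone 2 replicate 4 (adjusted p up to 0.131 and 0.165), which left 1 bZIP factor in each of those counts. The call of bZIP52 was also lost without either of the other 2 arrays and with the 4 arrays alone, and that of BZIP60 with no variance trend. Of 7 WRKY and 7 bHLH factors, ZAP1 and bHLH115 were higher in zone 2 (2 WRKY factors under median centring or quantile normalization), by 1.33 and 0.81 log2 units, and neither was called without zone 1 replicate 2 or zone 2 replicate 4 (adjusted p up to 0.0634 and 0.0573).

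The mean levels in zones 3 and 4 were set beside the largest differences. Of the 72 probe sets more than 8-fold higher in zone 2 than in zone 1, 63 had a mean in zone 3 above that in zone 2, and 39 had a mean in zone 4 below that in zone 2. Of the 78 more than 8-fold higher in zone 1, 45 had a zone 3 mean above the zone 2 mean. These are counts of mean signals and were not tested. The shares of all probe sets with such zone 3 or zone 4 means were not computed. The zone 2 signals that enter these counts also picked the probe sets, so the counts say nothing particular about them.

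**Figure D4:**
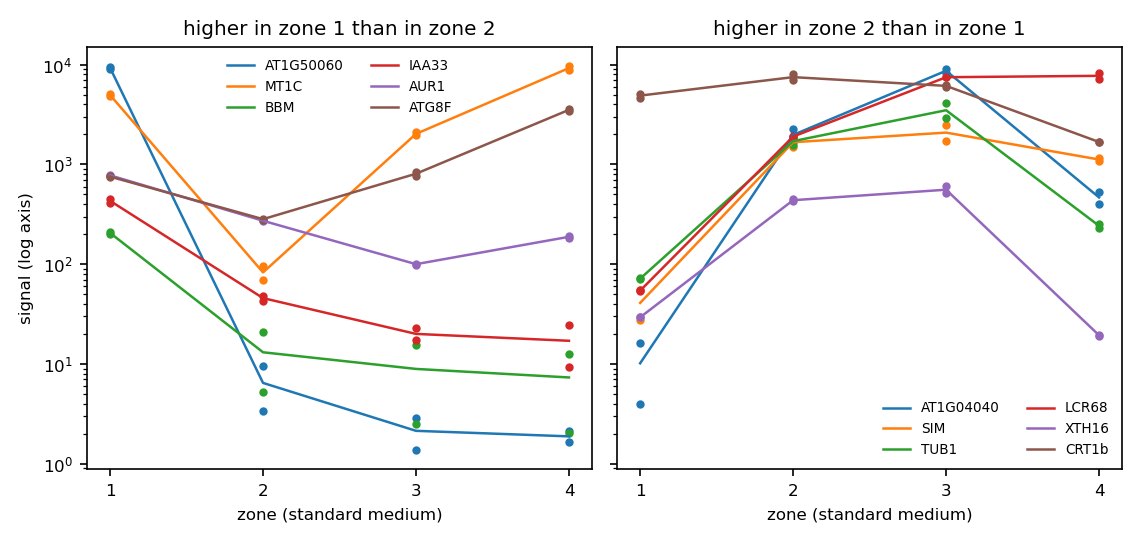
Signal (log axis) along the 4 zones on standard medium for 6 genes higher in zone 1 (left) and 6 higher in zone 2 (right); points are the 2 arrays of a zone and lines join their means. MT1C and ATG8F are lowest in zone 2, AT1G50060 and IAA33 stay low above the tip, and AT1G04040 and TUB1 are higher still in zone 3.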

How the data were processed

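Affymetrix ATH1 arrays measured transcript levels in 4 root zones on 2 media. The deposited values are signal intensities, 1 per probe set and array, made by the authors with MAS5, per the submitters' processing notes. The mean after trimming was 250.02 to 250.03 on every array. Detection calls and scan dates were not given, so batches could not be examined.

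Signals were analysed as log2(signal + 16) with no further normalization and no filter on dim probe sets. A mean for each of the 4 zones was fitted to the 8 standard arrays with limma 3.58.1 in R 4.3.3 (lmFit, eBayes with a variance trend, 4 residual and 4.5 prior degrees of freedom). Zone 1 was tested against zone 2, two-sided, with Benjamini-Hochberg adjustment over 22746 probe sets and a threshold of 0.05. In simulated data of this design, 46% of differences of 1 and 100% of differences of 2 on the log2 scale were recovered. Only 100 probe sets were changed at each size, against 5305 called in the data, and the simulated spread was partly averaged over probe sets. Both affect the adjusted p, so these rates do not give the share of real differences recovered. The comparison with the NaCl arrays was fitted to all 16 arrays and chosen after values had been seen.

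The probe annotation named 1 gene for 13513 probe sets, several for 503 and none for 8730. Of the 13513, 13436 were found in the RefSeq table, which was used for names only. A gene with several probe sets was represented by the brightest, giving 13355 genes, of which 1557 have a symbol other than the locus.

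Genes named were those with 1 gene per probe set that passed, did not overlap between zones and had a mean of at least 100 in the higher zone: the 12 largest log2 differences and the 5 largest signal differences in each direction. Up to 4 members per list and direction with the smallest p, and the measured cell type markers, were added. The members and lists were chosen with earlier results of these data known, and the symbols that make up each family were collected after values had been seen. Members of CDK, cyclin, auxin transport, epidermis and xylem lists were not measured. Alternatives were an added 1 or 64 in place of 16, median centring, quantile normalization, filters at the 40th and 60th percentile, the 4 arrays alone, all 16 arrays, no variance trend, and each of the 4 arrays left out.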

Additional observations from a re-analysis of the deposited data

Results flagged for a closer look

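The difference between zone 1 and zone 2 was compared between media in a fit to all 16 arrays. It differed between standard medium and 140 mM NaCl at 124 of 22746 probe sets (0.545%), among them 9 of the genes measured for the lists or leading the comparison. The values below are the zone difference on standard medium minus that on NaCl, on the log2 scale. The standard arrays are those of the report, so these values share them and are no independent support. In XTH16 the step toward zone 2 was larger on standard medium: the value was -2.80 (SE 0.31, adjusted p = 0.000706), with NaCl signals of 33 and 23.1 in zone 1 and 41.1 and 53.4 in zone 2. AT1G48070 had a value of 2.55 (adjusted p = 0.000419), with NaCl signals of 91.9 and 78.3 in zone 1 against 1.14 and 1.19 in zone 2. MT1C had a value of 1.81 (adjusted p = 0.00552), with 3364 and 3838 against 287 and 186 on NaCl. UGT87A2 had a value of 1.38 (adjusted p = 0.000976), and its zone 2 signals on NaCl were 626 and 699.8. The root cap list member AT2G14095 had a value of -1.47 (adjusted p = 0.0263), and its NaCl arrays were at 47.5 and 55.7 in zone 1 and 70.8 and 68.7 in zone 2. APL4 had a value of -1.83 (adjusted p = 0.0162), with zone 1 signals of 139 and 116 on NaCl. GSTU27 had a value of 1.06 (adjusted p = 0.0232) and TET3, a tetraspanin, of -0.75 (adjusted p = 0.0341). PMEPCRF, a pectin methylesterase with standard signals of 10.6 and 7.72 in zone 1 and 9.76 and 9.46 in zone 2, had a value of 1.40 (adjusted p = 0.0302), with NaCl signals of 79.5 and 58.7 in zone 2. In all 32 leading genes the NaCl arrays of the zones were apart in the same direction as on standard medium. These genes were picked for large differences, and the share of all probe sets apart on NaCl was not computed. On standard medium the arrays of the zones did not overlap in 61.6% of all probe sets, so the count is no separate support. Groups of 2 arrays were too small to look for single arrays far from the rest.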

How the results depend on the processing

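Under the 13 alternatives the number of probe sets called ranged from 2956 to 5931, against 5305. Leaving out 1 array of the 4 lowered it to between 2956 and 3584, with the lowest value without zone 2 replicate 4 and 3396 without zone 1 replicate 2. The count higher in zone 1 then lay between 1435 and 1809 and the count higher in zone 2 between 1521 and 1815, and 48.4% to 50.5% of the calls were higher in zone 1. These fits had fewer samples, and a lone array was assumed to vary like the other groups. Median centring moved the count higher in zone 1 to 1856, and the share of calls higher in zone 1 to 36.0%; quantile normalization moved that share to 45.8%. Of 416 pairs of a leading gene and an alternative, 415 kept direction and call and 1 lost the call. Of 6901 such pairs over all 556 named or listed genes, 294 lost a call, 140 gained one and 0 of those called turned direction. No paired analysis was possible because the arrays of zone 1 and zone 2 share no replicate number. Signals near or below 16 limit the size of the largest differences, and no detection calls show which probe sets are above background.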

Other observations

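A pair of families held members that differed in opposite directions. Of 15 measured IQ-domain proteins, which bind calmodulin and include microtubule-associated members, 4 were higher in zone 1 and 4 in zone 2. IQD16 was at 452 and 278 in zone 1 and 35.6 and 35.5 in zone 2, a difference of 2.85 log2 units (SE 0.26, adjusted p = 0.000136), and IQD22 and IQD18 differed in the same direction by 2.72 log2 units (SE 0.32, adjusted p = 0.000527) and 2.04 log2 units (SE 0.33, adjusted p = 0.0028). IQD19 went from 3.96 and 4.5 to 74.3 and 89.6, higher in zone 2 by 2.27 log2 units (SE 0.25, adjusted p = 0.000382), and iqd33 by 1.99 log2 units (SE 0.31, adjusted p = 0.00214). Of 15 tetraspanins, membrane proteins that organise protein complexes, 2 were higher in zone 1 and 3 in zone 2. TET10 was at 184 and 156 against 47 and 42.9, a difference of 1.61 log2 units (SE 0.21, adjusted p = 0.000914), while TET6 went from 59.3 and 32.9 to 293 and 258, higher in zone 2 by 2.26 log2 units (SE 0.22, adjusted p = 0.000181).

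Of 69 transcripts of the plastid genome, 13 were higher in zone 1 and 2 in zone 2, with a median log2 difference of 0.27. Among the calls toward zone 1, psbZ was at 2028 and 2353 in zone 1 and 1131 and 933 in zone 2. It differed by 1.08 log2 units (SE 0.13, adjusted p = 0.000747), and rpl14 by 0.94 log2 units (SE 0.16, adjusted p = 0.00373). The difference of ndhF was larger, at 1.28 log2 units. Its call was lost under median centring and quantile normalization, with 64 added, with the 4 arrays alone, with no variance trend and without some of the arrays. The count toward zone 1 was 5 without zone 1 replicate 2, 4 without zone 2 replicate 4, and 14 and 10 without the other two arrays. How the 2-cycle amplification treats plastid transcripts was not tested.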
